A study of Homo sapiens with 4 samples.

Results

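SR proteins and heterogeneous nuclear ribonucleoproteins (hnRNPs) are the RNA-binding proteins that decide which exons are joined. Members were taken from the gene names of the deposited table: the names made of SRSF or HNRNP plus letters or digits, without pseudogene names, and 13 further regulators (RAVER1, RAVER2, PTBP1, PTBP3, MBNL1, MBNL2, RBFOX2, TRA2A, TRA2B, SF3B1, U2AF1, U2AF2 and ZRSR2). They numbered 50 of 60662 rows, made up of 12 SR proteins, 2 SR-like proteins, 25 hnRNP proteins, 7 tissue-type regulators and 4 factors of 3′ splice site recognition. RNA-seq was performed on NB4 cells, a human acute promyelocytic leukemia line carrying the PML-RARA fusion. The cells had been transduced with a control vector (2 libraries) or with a vector expressing JMJD3 (2 libraries), so all groups share the line and a transduction. JMJD3, encoded by KDM6B, is a demethylase that removes the repressive polycomb mark from histone H3, and the comparison asks which transcripts differ when it is overexpressed. Total counts were 34190340 and 38947096 in vector replicates 1 and 2, and 35431658 and 41876224 in JMJD3 replicates 1 and 2.

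SR proteins carry an arginine and serine rich domain and mostly bind exonic enhancers, where they recruit the U1 and U2 small nuclear ribonucleoproteins (snRNPs) to nearby splice sites. Many hnRNP proteins bind silencers and act in the opposite direction, and both families also act on RNA export, stability and translation. SR and hnRNP genes commonly control their own dose through exons whose inclusion exposes the transcript to nonsense-mediated decay.

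The labels were checked on the overexpressed gene. Levels are given as CPM, counts scaled to a common library size by the trimmed mean of M values (TMM) and expressed per 1000000. KDM6B had 15.8 and 13.7 CPM in vector replicates 1 and 2, and 37.9 and 44.2 CPM in JMJD3 replicates 1 and 2. Both JMJD3 libraries lay above both vector libraries, and the log2 fold change was 1.48 (SE 0.13, edgeR quasi-likelihood test, adjusted p = 0.00116). Reads from the vector and from the chromosomal gene were not separated. Separate cultures are not stated for the replicates, so p-values measure the spread between libraries, which may be technical.

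Of the 50 members, 45 had enough counts to be tested. In JMJD3 cells 24 members were lower and 3 were higher at an adjusted p under 0.05, and 18 were not called. Over all 15243 genes tested, 19.1% were lower and 21.7% were higher, against 53.3% and 6.67% of the tested members. The median log2 fold change of the members was -0.28, against 0.04 over all genes tested, and 37 of the 45 members had a negative value. With a change of at least 2-fold, 1 member was lower and 1 was higher (2.87% and 7.59% of all genes tested). Scaling by library size alone shifted the median of all genes by 0.17 on the log2 scale; 20 members were then lower and 6 higher (10.6% and 31.4% of all genes tested), and 8 members with no call in either scaling turned from negative to positive. The split of all calls then changed from 46.9% lower to 25.2% lower, and that of the member calls from 88.9% to 76.9%.

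In bulk RNA a lower level per cell and a smaller share of the cells that express a gene cannot be told apart. The CPM values of the groups did not overlap for 32 members that were lower in JMJD3 cells and 6 that were higher; over all genes tested, 34.9% and 39.4% did not overlap in these directions. Without JMJD3 replicate 2 there were 13 lower members (5.83% of all genes tested were lower), without JMJD3 replicate 1 there were 16 (7.72%), and without vector replicate 2 there were 31 (24.2%). Vector replicate 1 came from lane 20, and lane 17 held the remaining libraries. Within lane 17, with the lone vector library assumed to vary as the JMJD3 pair does, 26 members were lower and 7 higher, against 29.3% and 30.2% of all genes tested.

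**Figure D1:**
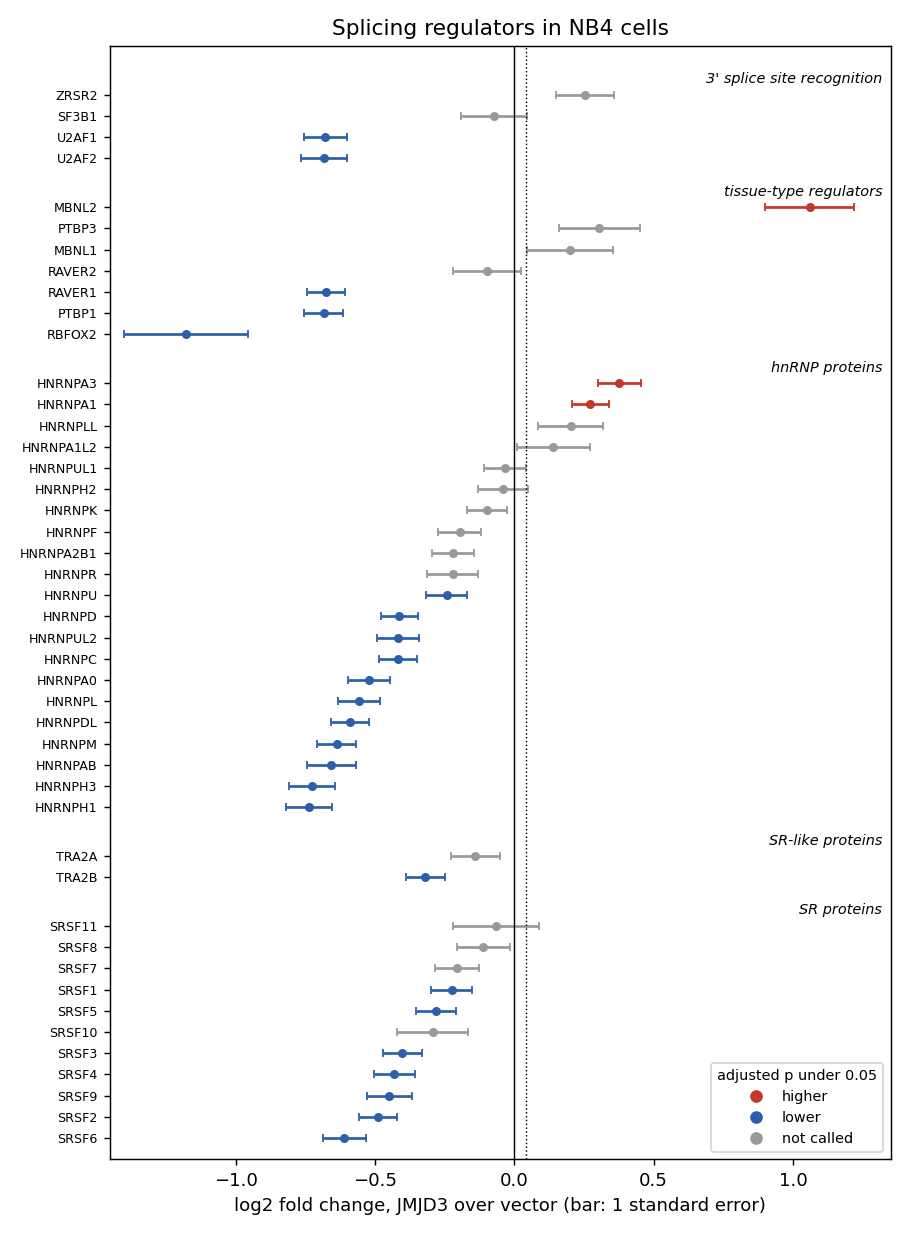
Log2 fold change of the 45 tested members in JMJD3 over vector cells, arranged by role, with bars of 1 standard error; the dotted line marks the median of all genes tested (0.04). The 24 members called lower lie between RBFOX2 (-1.18) and SRSF1 (-0.22), and the 3 called higher are HNRNPA1, HNRNPA3 and MBNL2.

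Among the 12 SR proteins, 7 of the 11 tested were lower (63.6%, against 19.1% of all genes tested). None was called higher by edgeR, against 21.7% of all genes tested, and the median log2 fold change was -0.29. The number called higher was also 0 at an unadjusted edgeR p under 0.05, by the DESeq2 Wald test and by limma on FPKM. SRSF6, which binds exonic enhancers, is at chr20:43457896-43464243 in RefSeq on GRCh38.p14. SRSF6 had 480.3 and 440.7 CPM in the vector libraries and 298.4 and 305.4 CPM in the JMJD3 libraries. The JMJD3 libraries lay well under both vector libraries, and the log2 fold change was -0.61 (SE 0.08, edgeR adjusted p = 0.0026). SRSF1, a founding SR protein that also shuttles to the cytoplasm, had 466.2 and 434.2 CPM in vector cells and 385.2 and 385.4 CPM in JMJD3 cells. Its groups did not overlap, but it was the member just inside the threshold, with a log2 fold change of -0.22 (SE 0.07, edgeR adjusted p = 0.0488). On FPKM, a level scaled for transcript length and depth, SRSF1 was at 230 and 202 with the control vector and at 207 and 206 with JMJD3, which overlap, and limma did not call it on log2(FPKM + 1) (adjusted p = 0.648). Without JMJD3 replicate 1 or replicate 2 its edgeR adjusted p was 0.343 or 0.364; it was 0.0951 with upper quartile scaling, 0.186 with a replicate block and 0.56 under library size scaling (-0.06). SRSF1 shares 32.7% of its exon bases with another annotated gene on the same strand, and SRSF6 shares 13.4% in the same way.

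The other SR proteins called lower were SRSF2 (-0.49), SRSF9 (-0.45), SRSF4 (-0.43), SRSF3 (-0.40) and SRSF5 (-0.28), given as log2 fold changes. SRSF2, which helps to define exons and is recurrently mutated in myeloid neoplasms, had 407.6 and 406.1 CPM in vector cells and 290.0 CPM in both JMJD3 libraries. The SE was 0.07 and the edgeR adjusted p was 0.00349. The SE of SRSF3 was also 0.07, although its JMJD3 libraries were farther apart (384.7 and 370.6 CPM). The SRSF2 p-value therefore does not reflect the closeness of its own libraries alone. On log2(FPKM + 1) the SRSF2 value was -0.25 with a limma adjusted p of 0.0704. The SRSF2 gene shares 27.7% of its exon bases with MFSD11 on the opposite strand, and SRSF9 shares 43.6% with GATC; the library kit does not mark strand, so reads from such overlaps cannot be told apart. MFSD11 had log2 fold change -0.24 and GATC had 0.11, neither called by edgeR (adjusted p = 0.0785 and 0.427). Without JMJD3 replicate 2 the edgeR adjusted p was 0.0504 for SRSF2, 0.134 for SRSF9, 0.0954 for SRSF4, 0.118 for SRSF3 and 0.308 for SRSF5; without JMJD3 replicate 1 it was 0.0995 for SRSF4, 0.067 for SRSF3 and 0.201 for SRSF5. SRSF5 was also not called with a replicate block (edgeR adjusted p = 0.0924), under library size scaling (-0.11, edgeR adjusted p = 0.212) or by limma on log2(FPKM + 1) (adjusted p = 0.0612). SRSF10, SRSF7, SRSF8 and SRSF11 were not called, at -0.29, -0.21, -0.11 and -0.07. SRSF10 was called without vector replicate 2 (-0.47, edgeR adjusted p = 0.00016) but was -0.13 without vector replicate 1 (edgeR adjusted p = 0.099). It was also called by the DESeq2 Wald test (adjusted p = 0.0431) and by edgeR with no filter (0.0171) or the crossed block (0.023). SRSF7 was called with the crossed block (-0.21, edgeR adjusted p = 0.0228), and was -0.27 without vector replicate 1. SRSF11 had 303.0 and 214.0 CPM in the vector libraries and 248.6 and 245.1 CPM in the JMJD3 libraries, so the vector libraries enclosed the JMJD3 pair; it was 0.17 without vector replicate 1 and -0.29 without vector replicate 2 (edgeR adjusted p = 0.0434 and 0.00311). SRSF12 had 0 counts in every library, which allows up to 0.0925 CPM in the shallowest library by counting error (3 counts).

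The SR-like proteins TRA2A and TRA2B bind GA-rich enhancers. TRA2B had 391.2 and 377.2 CPM in vector cells and 305.9 and 310.0 CPM in JMJD3 cells, which gave -0.32 (SE 0.07, edgeR adjusted p = 0.0139). TRA2A was not called, at -0.14 (SE 0.09, edgeR adjusted p = 0.237), and was -0.20 without vector replicate 2 (adjusted p = 0.0338). The TRA2B call was not kept without JMJD3 replicate 1 (adjusted p = 0.193) or without JMJD3 replicate 2 (adjusted p = 0.184), nor by edgeR with a replicate block (adjusted p = 0.0534) or under library size scaling (-0.15, adjusted p = 0.126).

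Of the 25 hnRNP proteins, 21 were tested. Of these, 11 were lower (52.4%), 2 were higher (9.52%) and 8 were not called, with a median log2 fold change of -0.24. Over all genes tested 19.1% were lower and 21.7% higher. HNRNPH1, which binds G-rich runs, had 852.5 and 757.8 CPM in the vector libraries and 480.5 and 485.8 CPM in the JMJD3 libraries. The vector libraries differed more from each other than the JMJD3 libraries did, yet the groups were far apart, with a log2 fold change of -0.74 (SE 0.08, edgeR adjusted p = 0.002). Its relative HNRNPH3, at chr10:68331693-68343196, had 419.1 and 379.5 CPM in vector cells and 246.8 and 236.2 CPM in JMJD3 cells. The log2 fold change of HNRNPH3 was -0.73 (SE 0.08, edgeR adjusted p = 0.00207), close to that of HNRNPH1. HNRNPH2, the X-linked copy of this family, was not called at -0.04, and its level was 93.5 and 85.0 CPM in vector and 88.6 and 85.1 CPM in JMJD3 cells.

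HNRNPAB, a protein of RNA transport and editing complexes, had 555.5 and 587.7 CPM in vector cells and 385.4 and 340.0 CPM in JMJD3 cells. It fell by 0.66 on the log2 scale (SE 0.09, edgeR adjusted p = 0.00289), and the JMJD3 libraries were the more spread pair. HNRNPM, at chr19:8444975-8489114, had 642.2 and 668.0 CPM in vector cells and 421.6 and 420.7 CPM in JMJD3 cells. Both JMJD3 libraries lay within 1 CPM of each other, and the log2 fold change was -0.64 (SE 0.07, edgeR adjusted p = 0.00193). HNRNPDL, a relative of HNRNPD, had 736.9 and 709.6 CPM in vector cells and 484.6 and 476.3 CPM in JMJD3 cells, again without overlap. Its log2 fold change was -0.59 (SE 0.07, edgeR adjusted p = 0.00222).

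Promoter sequences from RefSeq (GRCh38.p14, 250 bases before to 50 after each start) were found for 44 of the 50 members. They were searched on both strands for 6 motifs, each given here with its share. The motif CACGTG was held by 9 of the 44 members (20.5%), against 12.7% of the 9668 tested genes with a promoter and 7.26% of the 35116 promoter records. CCAAT was held by 52.3% of the members and 43.0% of tested genes, CCGGAA by 22.7% and 34.7%, GCGCATGC by 9.09% and 6.62%, TGACGTCA by 0% and 3.70%, and TATAAA by 13.6% and 8.09%. Of all 44 members with a promoter, 21 were lower, and over all genes tested 19.1% were lower and 21.7% higher. Of the 9 members with CACGTG, 4 were lower and 1, HNRNPA3, was higher. Promoters of 3 of these are shown because 2 fell and 1 rose with the same letters present; they were chosen after their values were seen. Capitals mark CACGTG, which begins 42, 50 and 71 bases before the start site, and all are on the plus strand: chr19:8444725-8445024, chr10:68331443-68331742 and chr2:177212544-177212843.
HNRNPM: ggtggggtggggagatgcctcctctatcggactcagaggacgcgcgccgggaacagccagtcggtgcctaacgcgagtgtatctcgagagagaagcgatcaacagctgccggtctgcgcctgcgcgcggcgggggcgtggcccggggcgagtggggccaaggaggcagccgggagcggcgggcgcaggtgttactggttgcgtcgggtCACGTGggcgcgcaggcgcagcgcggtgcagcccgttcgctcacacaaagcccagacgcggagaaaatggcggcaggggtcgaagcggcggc
HNRNPH3: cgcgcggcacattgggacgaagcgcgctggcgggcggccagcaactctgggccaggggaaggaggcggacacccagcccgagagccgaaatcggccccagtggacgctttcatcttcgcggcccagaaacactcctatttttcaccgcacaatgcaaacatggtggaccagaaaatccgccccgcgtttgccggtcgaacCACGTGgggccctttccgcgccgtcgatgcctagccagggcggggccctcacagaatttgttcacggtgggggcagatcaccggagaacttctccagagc
HNRNPA3: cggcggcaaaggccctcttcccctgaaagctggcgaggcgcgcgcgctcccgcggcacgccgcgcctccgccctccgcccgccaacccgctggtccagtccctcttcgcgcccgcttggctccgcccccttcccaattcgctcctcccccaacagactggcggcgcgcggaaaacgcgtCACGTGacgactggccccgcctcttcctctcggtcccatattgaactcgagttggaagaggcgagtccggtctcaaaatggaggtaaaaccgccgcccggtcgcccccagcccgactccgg

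The hnRNP proteins of highest level were HNRNPA1, HNRNPA2B1, HNRNPC, HNRNPD and HNRNPK by mean FPKM over the 4 libraries. HNRNPA1, a core packaging protein that also blocks exon recognition, had 2056 and 2110 CPM in vector cells and 2568 and 2464 CPM in JMJD3 cells. The groups did not overlap, and HNRNPA1 rose by a log2 fold change of 0.27 (SE 0.07, edgeR adjusted p = 0.0185). The call was not kept by the DESeq2 Wald test (adjusted p = 0.0542), by limma on log2(FPKM + 1) (adjusted p = 0.105) or with a replicate block (adjusted p = 0.069). Without JMJD3 replicate 1 or replicate 2 its edgeR adjusted p was 0.208 or 0.13. The 75 HNRNPA1 pseudogene rows summed to between 0.468% and 0.588% of the HNRNPA1 counts in the 4 libraries, and adding them gave a log2 ratio of 0.27.

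HNRNPA3, a relative of HNRNPA1, had 487.4 and 441.9 CPM in vector cells and 602.2 and 604.4 CPM in JMJD3 cells. All JMJD3 values exceeded all vector values, with a log2 fold change of 0.38 (SE 0.08, edgeR adjusted p = 0.011). The call was not kept without JMJD3 replicate 1 (adjusted p = 0.095) or replicate 2 (adjusted p = 0.111). HNRNPA3 shares 53.7% of its exon bases with NFE2L2 on the opposite strand, and NFE2L2 was at -0.21 (edgeR adjusted p = 0.106), the opposite direction. HNRNPA2B1, of the same subfamily, had 2712 and 2444 CPM in vector cells and 2247 and 2179 CPM in JMJD3 cells. It was the member just outside the threshold, at -0.22 (SE 0.08, edgeR adjusted p = 0.0572). In 5 other settings with all libraries it passed the threshold, at values from -0.21 to -0.25. It was not called with upper quartile scaling (-0.18, edgeR adjusted p = 0.103) or a replicate block (edgeR adjusted p = 0.152). Limma on log2(FPKM + 1) did not call it either (adjusted p = 0.212), and its value closest to no change with all libraries was -0.05. Without vector replicate 2 it was -0.29 (adjusted p = 0.00688).

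HNRNPC, which binds uridine runs and masks cryptic exons, had 1269 and 1305 CPM in vector cells and 989.8 and 939.1 CPM in JMJD3 cells. It fell by 0.42 on the log2 scale (SE 0.07, edgeR adjusted p = 0.00557), a call not kept without JMJD3 replicate 2 (adjusted p = 0.0851). HNRNPD, a binder of AU-rich elements, had 800.3 and 801.4 CPM in vector cells and 611.9 and 592.0 CPM in JMJD3 cells. It fell by 0.41 (SE 0.07, edgeR adjusted p = 0.00541), and without JMJD3 replicate 1 or replicate 2 the adjusted p was 0.0529 or 0.092. HNRNPK, which binds cytidine runs, had 1010 and 949.8 CPM in vector cells and 904.8 and 926.1 CPM in JMJD3 cells, a difference of -0.10 that was not called (SE 0.07, edgeR adjusted p = 0.298) and was 0.07 under library size scaling.

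The remaining hnRNP proteins called lower were HNRNPL (-0.56), HNRNPA0 (-0.52), HNRNPUL2 (-0.42) and HNRNPU (-0.24). HNRNPUL2 shares 44.3% of its exon bases with the read-through row HNRNPUL2-BSCL2, whose counts were 79.8% to 99.1% of its own, so its value depends on how reads were divided; the sum of both rows had a log2 ratio of -0.32. HNRNPR, HNRNPF, HNRNPUL1, HNRNPA1L2 and HNRNPLL were not called, at -0.22, -0.20, -0.03, 0.14 and 0.20. Without vector replicate 2, HNRNPR was -0.33, HNRNPF -0.25 and HNRNPA1L2 0.27 (edgeR adjusted p = 0.00175, 0.00873 and 0.048); without vector replicate 1, HNRNPF was -0.17 and HNRNPLL 0.31 (edgeR adjusted p = 0.0424 and 0.00451). In the opposite fits, HNRNPR was -0.14 and HNRNPA1L2 -0.02 without vector replicate 1 (edgeR adjusted p = 0.0749 and 0.886), and HNRNPLL was 0.07 without vector replicate 2 (edgeR adjusted p = 0.452). HNRNPLL was also called under library size scaling (0.37, edgeR adjusted p = 0.0488). With the crossed block HNRNPR was called (-0.22, edgeR adjusted p = 0.0266), and so was HNRNPF. Without JMJD3 replicate 1 or replicate 2, the edgeR adjusted p was 0.126 or 0.0832 for HNRNPUL2 and 0.317 or 0.237 for HNRNPU. HNRNPU was also not called with upper quartile scaling (edgeR adjusted p = 0.0737), with a replicate block (0.131) or under library size scaling (-0.07, edgeR adjusted p = 0.454), and it shares 15.6% of its exon bases with COX20 on the opposite strand. HNRNPA1L2 shares 100% of its exon bases with another annotated gene on the same strand. The HNRNPC-like copies HNRNPCL1, HNRNPCL2, HNRNPCL3 and HNRNPCL4 had between 0 and 4 counts in each library and were not tested.

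Among the tissue-type regulators, 3 of 7 were lower, 1 was higher and 3 were not called. These shares were 42.9% lower and 14.3% higher, against 19.1% and 21.7% of all genes tested. PTBP1, the polypyrimidine tract-binding protein that represses neuronal exons, had 930.6 and 962.3 CPM in vector cells and 577.3 and 600.7 CPM in JMJD3 cells. The groups were far apart for their spread, with a log2 fold change of -0.68 (SE 0.07, edgeR adjusted p = 0.00165). RAVER1, a co-repressor that binds PTBP1, had 1190 and 1192 CPM in vector cells and 727.2 and 762.9 CPM in JMJD3 cells. Its log2 fold change of -0.68 equalled that of PTBP1 to 2 decimals (SE 0.07, edgeR adjusted p = 0.00162), while RAVER2 was not called at -0.10. RAVER1 shares 26.2% of its exon bases with another annotated gene on the same strand.

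MBNL2 and RBFOX2 had the largest changes and the lowest levels of the tested members. MBNL2, a muscleblind protein that promotes differentiated exon patterns, had 149 and 130 counts in vector cells and 306 and 391 counts in JMJD3 cells, or 4.59, 3.56, 8.21 and 8.75 CPM. The groups did not overlap, and MBNL2 rose by 1.06 on the log2 scale (SE 0.16, edgeR adjusted p = 0.00416), a call kept in every alternative. RBFOX2, which binds GCAUG elements, had 403 and 289 counts in vector cells and 173 and 194 counts in JMJD3 cells, or 12.4, 7.92, 4.64 and 4.34 CPM. The vector libraries differed from each other by more than the JMJD3 libraries did, and RBFOX2 fell by 1.18 (SE 0.22, edgeR adjusted p = 0.00823). Its FPKM was 3.22 and 1.48 in vector cells and 1.48 and 1.31 in JMJD3 cells, which overlap, and on log2(FPKM + 0.1) the value was -0.62 with a limma adjusted p of 0.242. MBNL1 had 176.0 and 126.4 CPM in vector cells and 164.6 and 183.0 CPM in JMJD3 cells, which overlap, and was not called at 0.20 (edgeR adjusted p = 0.331). On log2(FPKM + 0.1) MBNL1 was higher by 0.78 (limma adjusted p = 0.0405), while on counts it was 0.42 without vector replicate 1 (edgeR adjusted p = 0.000796) and -0.02 without vector replicate 2. PTBP3 was not called at 0.30 (edgeR adjusted p = 0.136), and without vector replicate 1 it was 0.50 (adjusted p = 0.000223), against 0.11 without vector replicate 2 (adjusted p = 0.249). PTBP3 was also called by edgeR with no filter (adjusted p = 0.0302), with the crossed block (0.0244) and under library size scaling (0.47, adjusted p = 0.0475).

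**Figure D2:**
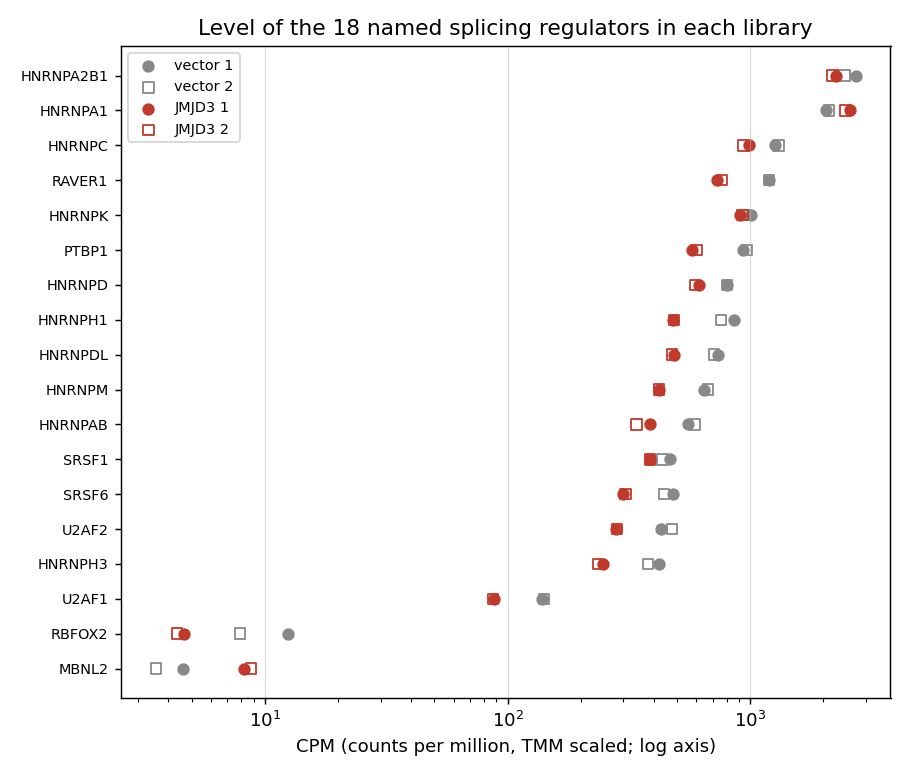
CPM (log axis) of 18 members, chosen as those called with the largest changes, those of highest FPKM and those with an adjusted p nearest the threshold; filled symbols are replicate 1 and open symbols replicate 2, grey for vector and red for JMJD3. The red symbols lie left of the grey ones in 16 of 18 members, and right of them for HNRNPA1 and MBNL2. Other members given per library in the text are not plotted, among them HNRNPA3, which was higher, and SRSF11, HNRNPH2, MBNL1 and SF3B1, whose groups overlapped.

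The 3′ splice site is recognised by the U2AF dimer, with U2AF2 on the polypyrimidine tract and U2AF1 on the AG. U2AF2 had 427.2 and 475.8 CPM in vector cells and 280.4 and 282.2 CPM in JMJD3 cells. U2AF1 had 138.0 and 141.4 CPM in vector cells and 87.5 and 87.2 CPM in JMJD3 cells. Both subunits fell by 0.68 on the log2 scale (SE 0.08 each, edgeR adjusted p = 0.0023 for U2AF2 and 0.00207 for U2AF1). U2AF1 has a near-identical copy in the table, U2AF1L5, with 78.8% to 88.0% as many counts, so the division of reads between them is uncertain; U2AF1L5 was at -0.62 and the sum of both at -0.65. SF3B1, the U2 snRNP subunit that contacts the branch point, had 423.5 and 333.6 CPM in vector cells and 355.0 and 365.0 CPM in JMJD3 cells, and was not called at -0.07. It was -0.23 without vector replicate 2 (edgeR adjusted p = 0.0128) and 0.07 without vector replicate 1. On FPKM SF3B1 was at 157 and 171 with the control vector and at 131 and 132 with JMJD3, which do not overlap, and limma called it lower on log2(FPKM + 1) (-0.32, adjusted p = 0.0434) and on log2(FPKM + 0.1) (-0.32, adjusted p = 0.0447). ZRSR2, which acts on minor introns, was not called at 0.25 (edgeR adjusted p = 0.095), but was called under library size scaling (0.42, edgeR adjusted p = 0.0195). It was 0.29 without vector replicate 2 and 0.18 without vector replicate 1.

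Summed over members, SR protein FPKM was 2640 and 2507 in vector cells and 2147 and 2075 in JMJD3 cells. The hnRNP sum was 10297 and 10037 against 8871 and 8654, and the sum over all 50 members was 14714 and 14370 against 12266 and 12037. For each of these 3 sums both JMJD3 libraries were lower, and the share of all counts was also lower, from 2.15% and 2.04% to 1.94% and 1.94% for all members. With 2 libraries a group the smallest exact permutation p is 0.333, so no test was made.

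Within-library FPKM ratios of 10 pairs of relatives were compared, with no test. In 8 pairs both JMJD3 libraries lay above both vector libraries, in 1 pair below, and in 1 they overlapped. The direction depends on which gene is the denominator, and most denominators (PTBP1, RAVER1, HNRNPL, HNRNPH1, SRSF6, SRSF3 and TRA2B) were themselves called lower. The count of pairs therefore largely restates those falls, and no other gene pairs were compared. SRSF7 to SRSF3 was barely apart, at 74.4% in vector replicate 2 and 75.3% in JMJD3 replicate 2. PTBP3 was 2.38% and 1.70% of PTBP1 in vector cells and 4.46% and 5.27% in JMJD3 cells. HNRNPLL was 7.55% and 6.08% of HNRNPL in vector cells and 11.2% and 11.5% in JMJD3 cells, and HNRNPH2 was 6.58% and 6.59% of HNRNPH1 against 10.3% and 9.90%. MBNL2 was 4.24% and 4.26% of MBNL1 in vector cells and 5.73% and 5.09% in JMJD3 cells. HNRNPUL2 was 32.7% and 37.0% of HNRNPUL1 in vector cells and 26.5% and 26.9% in JMJD3 cells. SRSF5, the more abundant of its pair, was 220% and 258% of SRSF6 in vector cells and 307% and 280% in JMJD3 cells.

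Other splicing genes were counted in 5 lists. Over all genes tested, for comparison with each list and with their sum, 19.1% were lower and 21.7% higher (median 0.04). Of the U1, U2 and Sm snRNP proteins, 18 of 21 tested were lower and 0 were called higher (median -0.45); the largest fall was in SNRPA1, a U2 protein, at -0.83 (edgeR adjusted p = 0.00156). Of the tri-snRNP and catalytic spliceosome proteins, 15 of 25 were lower and 0 higher (median -0.35), with the largest fall in TXNL4A at -0.79 (edgeR adjusted p = 0.00385). In both of these lists the number higher was also 0 at an unadjusted edgeR p under 0.05, by DESeq2 and by limma on FPKM. Of other splicing regulators, 17 of 39 were lower and 4 higher (median -0.24), with the largest rise in TIA1, an RNA-binding protein of U1 recruitment, at 0.91 (edgeR adjusted p = 0.00218). Of the exon junction complex and nonsense-mediated decay genes, 5 of 16 were lower and 1 higher (median -0.23), from SMG5 at -0.76 (edgeR adjusted p = 0.00154) to UPF2 at 0.52 (edgeR adjusted p = 0.0262). Of the kinases that phosphorylate SR proteins, edgeR called 0 of 10 lower and 3 higher, CLK1 at 0.60, CLK2 at 0.30 and DYRK1B at 1.12. The share higher was 30%, near the 21.7% of all genes tested, and the median was 0.09 against 0.04. At an unadjusted edgeR p under 0.05, 1 kinase was lower, against 0 by DESeq2 and 1 by limma on FPKM. DYRK1B had 21 and 41 counts in vector cells and 71 and 89 in JMJD3 cells (edgeR adjusted p = 0.0206), and the DESeq2 Wald test did not call it (adjusted p = 0.0595), nor did limma on log2(FPKM + 0.1) (adjusted p = 0.0599) or edgeR without JMJD3 replicate 2 (adjusted p = 0.0596). CLK2 was not called by DESeq2 (adjusted p = 0.0655), by limma on log2(FPKM + 1) (adjusted p = 0.0679), or by edgeR with DESeq2 size factors (0.0514) or a replicate block (0.124). Without JMJD3 replicate 1 or replicate 2 the edgeR adjusted p was 0.0656 or 0.0577 for CLK1 and 0.254 or 0.376 for CLK2. Without JMJD3 replicate 1 the UPF2 adjusted p was 0.1 and without JMJD3 replicate 2 it was 0.14; the UPF2 value was 0.34 without vector replicate 2. Over the 5 lists 55 of 111 tested genes were lower and 8 higher; without JMJD3 replicate 2 there were 20 lower and 1 higher (5.83% and 10.2% of all genes tested), and without JMJD3 replicate 1 there were 27 and 3 (7.72% and 11.8%). Without vector replicate 1 there were 70 lower and 18 higher (29.3% and 30.2%), and under library size scaling 33 and 9 (10.6% and 31.4%).

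The line was checked on markers of promyelocytes and of other cell types. The 7 promyelocyte markers summed to 16646 and 17447 CPM in vector cells and 10615 and 10567 CPM in JMJD3 cells, and MPO was the most abundant, with PRTN3 next. MPO, PRTN3, AZU1 and CTSG were lower, while CD33 (0.29, edgeR adjusted p = 0.0372) and CEBPE (0.73, edgeR adjusted p = 0.00512) were higher; on log2(FPKM + 1) limma did not call CD33 (0.06, adjusted p = 0.627), nor did edgeR without JMJD3 replicate 1 (adjusted p = 0.382) or replicate 2 (adjusted p = 0.279). ELANE was at 11 and 7 counts in vector cells and at 1 and 2 counts in JMJD3 cells. All 5 erythroid markers had 0 counts. T cell markers summed to 3.76 and 5.29 CPM against 11.1 and 11.1 CPM, nearly all CD2, with CD3D, CD3E and CD3G at 10 counts or fewer. B cell markers summed to 10.4 and 11.6 CPM against 17.6 and 15.9 CPM, mostly CD79A, and MS4A1 was at 0. Megakaryocyte markers reached 1.74 CPM at most, all ITGA2B, with PF4 and GP9 at 0. Fibroblast markers reached 0.192 CPM at most, and epithelial markers summed to 6.63 and 7.48 CPM against 3.43 and 2.82 CPM, with EPCAM highest in vector cells and KRT8 in JMJD3 cells. Mitochondrial genes held 7.91% and 7.65% of the counts in vector cells and 5.73% and 5.86% in JMJD3 cells. The part of these differences in the results on splicing regulators was not tested. MYC, whose protein binds CACGTG, had 1250 and 1254 CPM in vector cells and 1026 and 1010 CPM in JMJD3 cells (log2 fold change -0.30, edgeR adjusted p = 0.0132). The MYC call was not kept without JMJD3 replicate 1 (edgeR adjusted p = 0.141) or replicate 2 (0.191), with a replicate block (0.0543) or under library size scaling (-0.13, edgeR adjusted p = 0.131), and its part in the members' values was not tested.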

How the data were processed

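RNA was taken from 4 libraries prepared with a kit that does not mark strand. The submitters' processing notes name CASAVA 1.8, TopHat2 2.0.4, RSEM, edgeR and the build GRCh38; the study's methods and design text name other tools and an older build, and the gene identifiers of the table include ones annotated on GRCh38 alone. The deposited table holds estimated counts per gene that, from their values, the authors had scaled by a factor for each library, and FPKM values from the authors. Between 94.0% and 94.3% of the values above 0.001 were whole multiples, within 0.1 read, of a step that differed between libraries (1.14, 1.05, 0.993 and 0.829). Values were divided by that step and rounded, which gave the counts used here; this was not foreseen when the tests were chosen. Counts were filtered with filterByExpr, scaled by TMM and fitted with edgeR 4.0.16 (quasi-likelihood, Benjamini-Hochberg over 15243 genes); DESeq2 1.42.0, limma 3.58.1 (FPKM on the log2 scale, with a pseudocount of 1 or of 0.1), other scalings, filters, a replicate block and fits without each library were alternatives. Errors are standard errors of log2 fold changes, calculated back as the absolute log2 fold change over the square root of edgeR's quasi-likelihood F statistic. Overlaps used GENCODE 44 on GRCh37, positions RefSeq on GRCh38.p14. Values in every library are given for members with an adjusted p under 0.05 and an absolute log2 fold change of at least 0.58, the 5 of highest mean FPKM and those just inside and just outside the threshold; other genes shown in that way were added after their values were seen. In each related list the largest rise and fall at an adjusted p under 0.05 are named where there is one; 1 such gene is not reported here. Members and lists were chosen with earlier results of these data known.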

Additional observations from a re-analysis of the deposited data

How the results depend on the processing

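KDM6B kept its direction and call in every alternative, with log2 fold changes from 1.19 to 1.65 with all libraries and from 1.36 to 1.58 with a library left out. Of the 27 members called, 20 were called in all 12 alternatives that used every library, and 13 of these also in each fit without a library. Members lower numbered 20 to 29 over those alternatives and 13 to 31 without a library; members higher numbered 2 to 6 and 1 to 7. Related genes lower numbered 20 to 71 without a library and 33 under library size scaling, and related genes higher numbered 1 to 18 without a library. Over the 12 alternatives that used every library, 10.6% to 23.9% of all genes tested were lower and 13.4% to 31.4% were higher. The shares in the fits without a library are given with the counts above. With a change of at least 1.5-fold 11 members were lower and 1 higher (7.96% and 15.1% of all genes tested), and with 2-fold 1 and 1 (2.87% and 7.59%). Members higher were 6 under library size scaling, where 31.4% of all genes tested were higher. Of these alternatives, library size scaling, the crossed block, deposited values rounded and limma on deposited counts, were added after seeing the data.

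Values that changed sign belonged to members that were not called. Under library size scaling they were 0.095 for SF3B1, 0.057 for SRSF8, 0.10 for SRSF11, 0.028 for TRA2A, 0.070 for HNRNPK, 0.13 for HNRNPH2, 0.14 for HNRNPUL1 and 0.070 for RAVER2. Under upper quartile scaling HNRNPUL1 was 0.0041. SRSF11 was 0.0665 by limma on log2(FPKM + 1) and 0.0671 on log2(FPKM + 0.1). Without a library, log2 fold changes ranged from -0.23 to 0.070 for SF3B1, from -0.29 to 0.17 for SRSF11, from -0.018 to 0.27 for HNRNPA1L2 and from -0.016 to 0.42 for MBNL1. The causes were not tested, except that library size scaling shifts all genes.

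With replicate number as a replicate block, 20 members were lower and 2 higher, KDM6B was 1.48, and 49 related genes were lower and 8 higher; over all genes tested, 15.9% were lower and 21.5% higher. The deviations of same-numbered libraries from their group means had a correlation of -0.25. This cannot decide whether the numbers pair the libraries, because it sets 1 difference in each group side by side and vector replicate 1 also differs in lane. With the crossed pairing 29 members were lower and 4 higher (23.9% and 27.4% of all genes tested). Fits without a library rest on a spread taken from the group that keeps both. The largest change of a member that was not called was 0.30 (PTBP3).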

Other observations

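Several rows beside the members carry related values. PTBP2, the neuronal relative of PTBP1, had 17.3 and 16.8 CPM in vector cells and 12.1 and 11.9 CPM in JMJD3 cells, and its log2 fold change was -0.50 (edgeR adjusted p = 0.0103). Limma did not call PTBP2 on log2(FPKM + 1) (-0.33, adjusted p = 0.115), nor did edgeR without JMJD3 replicate 1 (adjusted p = 0.111) or replicate 2 (adjusted p = 0.147). MBNL3 had 31.2 and 23.2 CPM against 32.2 and 33.9 CPM and was not called at 0.29 (edgeR adjusted p = 0.173), while limma called it higher on log2(FPKM + 1) (0.88, adjusted p = 0.0343) and on log2(FPKM + 0.1) (1.06, adjusted p = 0.033). MBNL3 was 0.48 without vector replicate 1 (edgeR adjusted p = 0.000681) and 0.09 without vector replicate 2 (edgeR adjusted p = 0.41), and the crossed block called it (0.30, edgeR adjusted p = 0.0468). HNRNPU-AS1 had 40.0 and 36.1 CPM in vector cells and 52.6 and 46.4 CPM in JMJD3 cells and rose by 0.38 (edgeR adjusted p = 0.0347), while HNRNPU was lower at -0.24 (edgeR adjusted p = 0.0389). HNRNPU-AS1 was not called by limma on log2(FPKM + 1) (adjusted p = 0.123), by edgeR with a replicate block (0.064) or without JMJD3 replicate 1 (0.365) or replicate 2 (0.147). These rows were chosen after their values were seen.

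The deposited count, scaled by the authors, divided by FPKM reflects the transcript length that the authors' quantification assigned in each library. Over 11478 genes with at least 50 counts in every library, limma called 0 genes for a difference of this ratio, and 1880 (16.4%) had an unadjusted p under 0.05. For MBNL1 the ratio was 152 and 171 in vector cells and 113 and 102 in JMJD3 cells, and for SRSF2 it was 49.3 and 52.4 against 42.4 and 42.2, so on the deposited scale the JMJD3 libraries were lower for both genes. Their limma adjusted p was 0.195 for MBNL1 and 0.194 for SRSF2. For HNRNPA0 the ratio was 317 in every library. With the recovered counts, which are not scaled between libraries, HNRNPA0 ranged from 277 to 382, and SRSF2 was at 42.7 and 50.9 in the JMJD3 libraries, which enclosed both vector libraries. Isoforms themselves were not measured in the table.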
